A study of Mus musculus with 4 samples.

Results

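The 10 genes described here encode elastin and the proteins of the microfibrils and fibulin coat that surround it: Eln, Fbn1, Fbn2, Mfap2, Mfap4, Mfap5, Fbln1, Fbln2, Fbln5 and Emilin1. They were taken by symbol from the 24487 rows of the authors' table of FPKM (sequenced fragments divided by transcript length and by library size), where each of the 10 had 1 row, so the provision for keeping the row with the highest mean over the 4 libraries was not needed. The libraries hold RNA of bone marrow mesenchymal stem/progenitor cells (MSPC), adherent stromal cells cultured from mice on a C57BL/6 background at passages 5 to 10. There were 2 libraries of Asxl1-/- cells, which lack a chromatin regulator of the Polycomb system, and 2 of wild-type (WT) cells; all were grown in MesenCult medium with 20% supplement and split at 80 to 90% confluency. The labels name no allele, Cre driver or animal age. Whether replicates were separate animals is not stated, so p-values reflect the spread between these libraries alone. Going by the title of the series, the comparison asks what becomes of stromal self-renewal and fate when Asxl1 is lost.

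An elastic fibre is built outside the cell. Fibrillins polymerise into beaded microfibrils, small microfibril-associated glycoproteins bind to them, and on this scaffold soluble elastin is laid down and crosslinked by lysyl oxidases. Fibulins and emilins sit at the border between elastin and microfibril and help to join them. Microfibrils without elastin also occur, in bone and other tissues, and fibrillins hold latent TGF-beta and BMP ligands in the matrix.

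The cultures held RNA of the microfibril scaffold but almost none of elastin. Fbn1, Mfap5 and Fbln2 were higher in both Asxl1-/- libraries than in both WT libraries, as were 15.6% of all genes tested, and Fbn2 and Mfap2 were lower in both, as were 25.2%. In the fibrillin pair (Fbn1, Fbn2) and the microfibril-associated pair (Mfap5, Mfap2), 1 gene was thus higher and 1 lower. For Mfap4, also microfibril-associated, the groups overlapped. Fbln1 in both genotypes, Fbln5 in Asxl1-/- and Mfap4 in WT differed more between libraries of the same genotype than between the genotype means. Emilin1 was nearly level. At an adjusted p under 0.05 in limma, the test run across the 11485 genes that averaged 1 FPKM or more, 0 of the 9 members tested were called, against 0.0261% of all genes tested. An unadjusted limma p under 0.05 was reached by 4 members (Fbn1, Fbn2, Mfap2 and Mfap5) and by 7.91% of all genes tested. The members were chosen with earlier results of these data known, so these counts are a description. Of the 9, Fbn2 and Mfap4 pass the level filter through their WT values alone.

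Asxl1 RNA followed the labels, at 0.273 and 0.312 FPKM in Asxl1-/- libraries and 14.6 and 11.2 FPKM in WT libraries. FPKM summed to between 497340 and 703730 per library, the highest in WT replicate 2, and 10951 to 11363 rows reached 1 FPKM. Rows under 300 bp held 40.9% of the FPKM in WT replicate 2 and 21.4 to 24.9% in the other libraries. Read numbers are unknown. An estimate from steps among low values gave depths of 0.955 to 1.03 times that of WT replicate 1. It searched only ratios near 1, so it could not have shown a large difference in depth. Of 10 mesenchymal markers, 8 stood at 1 FPKM or more in each Asxl1-/- library, and 10 and 9 in WT replicates 1 and 2. Eng and Nt5e were the markers under 1 FPKM. Of 16 macrophage markers 15 were found, and they summed to 87.3 and 388 FPKM in Asxl1-/- replicates 1 and 2 and to 7.74 and 575 FPKM in WT replicates 1 and 2. In Asxl1-/- replicate 1, Fcer1g alone held 72.2 FPKM of that sum. At 1 FPKM or more stood 4 and 15 of them in the Asxl1-/- libraries and 3 and 15 in the WT libraries, and 3 were listed at 0 in WT replicate 1. Smooth muscle markers, 8 genes led by Acta2, summed to 1225 and 2031 FPKM in Asxl1-/- and to 708 and 2070 FPKM in WT. Endothelial markers (7) reached at most 8.15 FPKM in sum, in Asxl1-/- replicate 2, where Cdh5 alone held 7.11 FPKM, and epithelial markers (5) at most 0.502 FPKM. In bulk RNA, fewer cells of a type and less RNA per cell cannot be told apart.

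**Figure D1:**
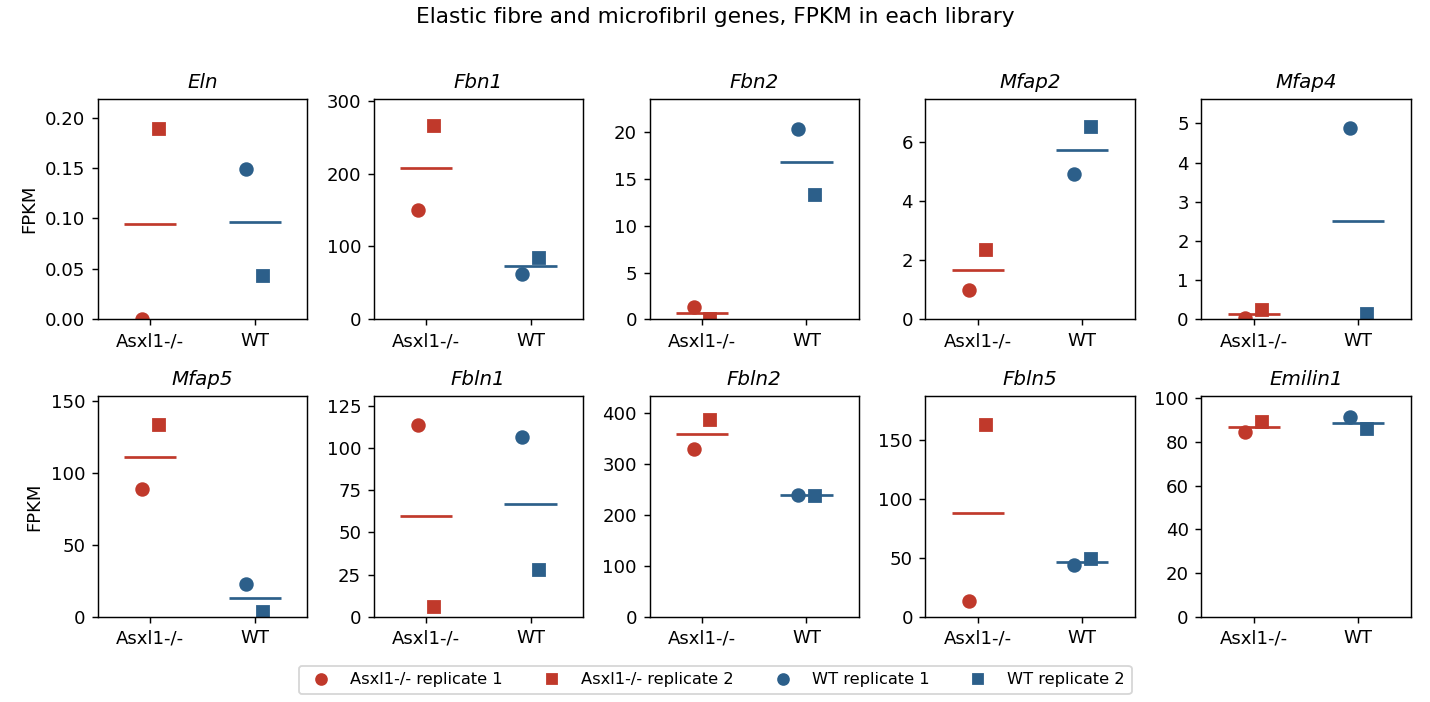
FPKM of each of the 10 genes (vertical axes start at 0 and differ between panels) in Asxl1-/- libraries on the left and WT libraries on the right; horizontal lines are group means. Both Asxl1-/- libraries lie above both WT libraries for Fbn1, Mfap5 and Fbln2 and below them for Fbn2 and Mfap2.

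Elastin, the rubber-like core protein of the fibre, was barely detected. Eln (chromosome 5, 134702596 to 134747254, minus strand; all positions are on mm10) was listed at 0 in Asxl1-/- replicate 1 and stood at 0.189 FPKM in Asxl1-/- replicate 2, against 0.149 and 0.0432 FPKM in WT replicates 1 and 2. The groups overlapped and all values lay far under the 1 FPKM mean needed for testing, so no fold change is given. An antisense gene model overlaps the span of Eln, and the strandedness of the libraries is not given in the sources used here. Whether the 2 share exonic bases was not examined, so whether their reads mix is not known.

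The fibrillins are large paralogous glycoproteins and the backbone of microfibrils. Fbn1, the fibrillin altered in human Marfan syndrome, lies on chromosome 2 (125300594 to 125506438, minus strand) and stood at 149.7 and 265 FPKM in Asxl1-/- libraries and at 62.3 and 83.8 FPKM in WT libraries. Even the lower Asxl1-/- library was above both WT libraries. The means were 207 ± 81.3 FPKM in Asxl1-/- and 73.0 ± 15.2 FPKM in WT (SD, n = 2 each). The log2 fold change, here and below on log2(FPKM + 1) as Asxl1-/- minus WT, was 1.45 ± 0.38 (± here the standard error; limma adjusted p = 0.553). With 1 library left out it ran from 1.04 to 1.86. The median log2 fold change of the 931 tested genes of chromosome 2 was -0.11, and with the chromosome medians of each library removed that of Fbn1 was 1.57.

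Fbn2, the fibrillin more typical of the embryo, lies on chromosome 18 (58008623 to 58209926, minus strand). It stood at 1.28 and 0.0154 FPKM in Asxl1-/- libraries and at 20.4 and 13.2 FPKM in WT libraries. The groups lay far apart, and the value in Asxl1-/- replicate 2 was close to 0. Gene models on the other strand overlap the spans of both fibrillins (Gm9913 at Fbn1, Gm26507 at Fbn2), and shared exonic bases were not examined here either. The fitted log2 fold change was -3.52, standard error 0.50 (limma adjusted p = 0.407), and it ran from -4.10 to -2.94 with 1 library left out. Because the Asxl1-/- values are low, the size depends on the pseudocount: at 0.1 in place of 1 it was -5.37. In the authors' deposited table Fbn2 is marked significant, with group values of 0.808 FPKM in Asxl1-/- and 19.3 FPKM in WT, a log2 fold of -4.58 and q = 0.00836.

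Fbn1 was the more abundant fibrillin in all 4 libraries. Fbn2 made up 0.845% and 0.00582% of the summed fibrillin FPKM in Asxl1-/- libraries, and 24.7% and 13.6% in WT libraries. The sum itself was 151 and 265 FPKM in Asxl1-/- and 82.6 and 97.0 FPKM in WT. The log2 ratio of Fbn1 to Fbn2, each with 1 FPKM added, was 6.05 and 8.03 in Asxl1-/- libraries and 1.57 and 2.57 in WT libraries, a difference of means of 4.97. An exact two-sided permutation test of 2 libraries against 2 can give no p under 0.333, so this difference is given without a test.

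**Figure D2:**
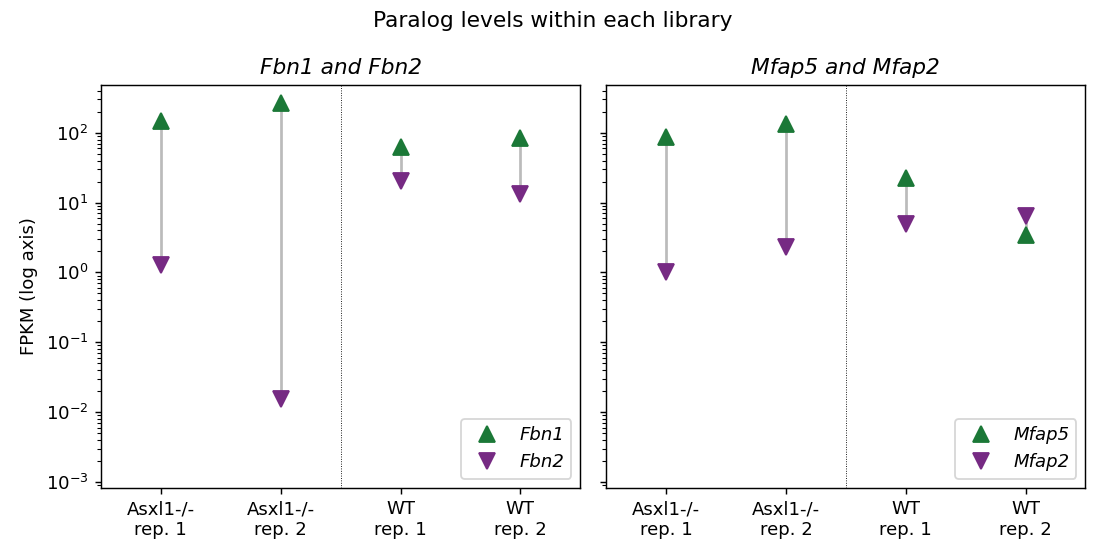
FPKM on a log axis of Fbn1 and Fbn2 (left) and of Mfap5 and Mfap2 (right) in each library; a grey line joins the genes of a library. The distance between the paralogs is wider in both Asxl1-/- libraries, and Mfap2 lies above Mfap5 in WT replicate 2.

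Mfap5 and Mfap2 encode the related small glycoproteins MAGP-2 and MAGP-1, which bind fibrillins. Mfap5 (chromosome 6, 122513676 to 122529287, plus strand) stood at 88.3 and 133 FPKM in Asxl1-/- libraries and at 22.6 and 3.42 FPKM in WT libraries. Both Asxl1-/- libraries were high, and the WT libraries, though lower, were themselves unequal. The means were 111 ± 31.4 FPKM in Asxl1-/- and 13.0 ± 13.6 FPKM in WT (SD, n = 2 each). Its log2 fold change was 3.42, standard error 0.85 (limma adjusted p = 0.539); without WT replicate 1 it was 4.63 and without WT replicate 2 it was 2.21. In the authors' deposited table Mfap5 is marked significant, with group values of 139 FPKM in Asxl1-/- and 14.8 FPKM in WT and a log2 fold change of 3.23. Of the 9 members which that table tested, Fbn2 and Mfap5 are the 2 it marks, against 0.939% of its 12881 tested genes; its group values come from these same libraries.

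Mfap2 (chromosome 4, 141010424 to 141015984, plus strand) stood at 1.0 and 2.35 FPKM in Asxl1-/- libraries and at 4.92 and 6.49 FPKM in WT libraries. The groups did not overlap, and its mean FPKM was higher than that of 19.5% of the genes tested. On the log2 scale the fold change was -1.36, standard error 0.38 (limma adjusted p = 0.556), -1.81 at a pseudocount of 0.1, and between -1.73 and -0.99 with 1 library left out. On chromosome 4 the median log2 fold change of 690 tested genes was -0.23, and WT replicate 1 stood 0.31 above the mean of the 4 libraries. With chromosome medians removed, Mfap2 had -1.12.

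Mfap5 made up 98.8% and 98.1% of the summed FPKM of Mfap2, Mfap4 and Mfap5 in Asxl1-/- libraries, and 69.8% and 34.0% in WT libraries. In WT replicate 2 the order was turned, with Mfap2 at 64.5% of that sum. Mfap4, a fibrinogen-domain protein of microfibrils, was near 0 outside a single library: it stood at 0.0286 and 0.247 FPKM in Asxl1-/- libraries and at 4.87 and 0.150 FPKM in WT libraries. The groups overlapped. Its log2 fold change of -1.20 (standard error 0.88, limma adjusted p = 0.754) was -0.02 without WT replicate 1. Mfap4 also overlaps the gene Mapk7 on the other strand.

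Genes outside this set were compared with Mfap5 by log2(FPKM + 1), each gene centred on its own mean over the 4 libraries. Unnamed gene models, Y-linked genes and Xist were left out. Closest among the tested genes that remained were Rbpms, Col4a2 and Col4a1, with root mean square differences of 0.44, 0.60 and 0.65. With 4 libraries this likeness is a description. Eln was not tested and so has no such neighbours.

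**Figure D3:**
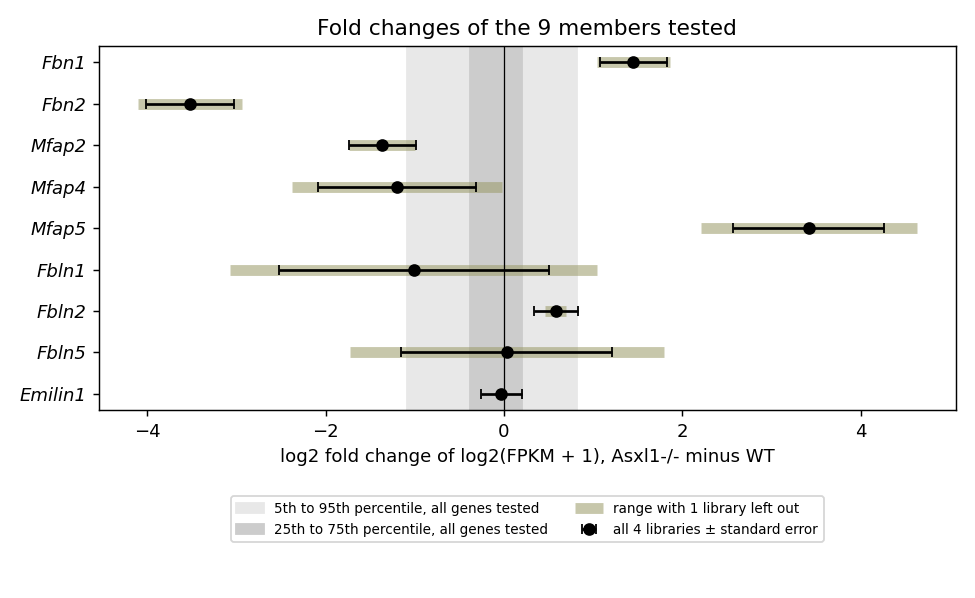
Log2 fold changes of log2(FPKM + 1), Asxl1-/- minus WT, of the 9 members tested (points, bars of 1 standard error), with their range when 1 library is left out (broad bars) and the spread of all genes tested (grey bands). Fbn1, Mfap5, Fbn2 and Mfap2 stay on their side of 0 whichever library is left out, as follows from groups that do not overlap. Fbln1 and Fbln5 cross it.

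The fibulins are secreted, calcium-binding proteins of the matrix. Fbln2, which binds fibrillin and elastin, was the most abundant of the 10 genes in all 4 libraries, and held between 37.0% and 46.8% of their summed FPKM. Fbln2 (chromosome 6, 91212764 to 91272540, plus strand) stood at 329 and 385 FPKM in Asxl1-/- libraries and at 239 and 237 FPKM in WT libraries. The WT values were nearly equal and both Asxl1-/- values lay above them. The log2 difference was 0.58, standard error 0.25 (limma adjusted p = 0.632), and 0.79 with chromosome medians removed. Fbln2 and Mfap5 share chromosome 6, whose 562 tested genes had a median log2 fold change of -0.21.

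Fbln1, found in basement membranes and elastic fibres, stood at 114 and 5.61 FPKM in Asxl1-/- replicates 1 and 2 and at 107 and 27.6 FPKM in WT replicates 1 and 2. It was high in both replicates 1 and low in both replicates 2. Its log2 fold change was -1.01, standard error 1.51 (limma adjusted p = 0.879), -3.07 without Asxl1-/- replicate 1 and 1.05 without Asxl1-/- replicate 2. The libraries low in Fbln1 were those with the higher sums of macrophage markers, 388 FPKM in Asxl1-/- replicate 2 and 575 FPKM in WT replicate 2; their part in the result was not tested.

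Fbln5, which carries soluble elastin to the microfibril, stood at 13.2 and 163 FPKM in Asxl1-/- replicates 1 and 2 and at 44.0 and 48.4 FPKM in WT replicates 1 and 2. The Asxl1-/- libraries lay on either side of the WT libraries. The fitted log2 fold change was 0.03, standard error 1.18 (limma adjusted p = 0.996), 1.79 without Asxl1-/- replicate 1 and -1.73 without Asxl1-/- replicate 2. Within Asxl1-/-, Fbln1 and Fbln5 went opposite ways between the replicates. Fbln1 held 25% of the summed FPKM of Fbln1, Fbln2 and Fbln5 in replicate 1 and 1.01% in replicate 2. Fbln5 held 2.90% and 29.4%, and Fbln2 72.1% and 69.6%. In the WT libraries Fbln1 held 27.4% and 8.82% and Fbln5 11.3% and 15.5%.

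**Figure D4:**
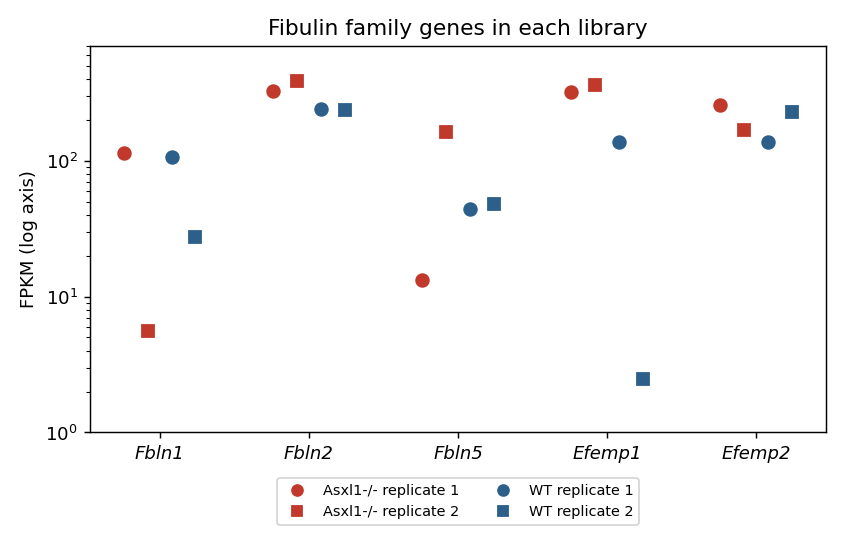
FPKM on a log axis of Fbln1, Fbln2 and Fbln5 and of the related Efemp1 and Efemp2 in each library, Asxl1-/- to the left of WT within each gene. Fbln1 and Fbln5 lie far apart between the Asxl1-/- libraries, and Efemp1 is low in WT replicate 2.

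Emilin1, a glycoprotein at the elastin and microfibril border that also restrains TGF-beta maturation, was the steadiest member. It stood at 84.7 and 89.2 FPKM in Asxl1-/- libraries and at 91.5 and 85.8 FPKM in WT libraries. The means of 86.9 ± 3.22 FPKM in Asxl1-/- and 88.7 ± 4.0 FPKM in WT (SD, n = 2 each) differed by less than the spread between replicates, and the log2 fold change was -0.03 (standard error 0.23, limma adjusted p = 0.983). Relative to the median of all genes tested it was 0.05, and -0.05 after quantile normalization.

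Counted over the 10 genes, 3 were higher and 2 lower in both Asxl1-/- libraries than in either WT library, and the groups overlapped for 5. Among all genes tested, 15.6% were higher and 25.2% lower in this way; after median ratio scaling 20.1% were higher and 20.8% lower. The median log2 fold change of the 9 members tested was -0.03, against -0.07 over all genes tested, and hides values of both signs: 4 were positive and 5 negative. Replicates spread widely in these genes. The root mean square difference of log2(FPKM + 1) between the Asxl1-/- libraries was 1.90 over the members and 0.93 over all genes tested, and between the WT libraries 1.32 and 0.93. Between libraries of different genotype it ran from 1.75 to 2.49 over the members and from 0.907 to 1.05 over all genes tested. Asxl1-/- replicate 1 lay nearer to WT replicate 1 than to Asxl1-/- replicate 2 over the members. Over all genes tested it lay nearest to WT replicate 2.

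Promoter sequence was at hand for 6 of the 10 genes (RefSeq on GRCm38.p6, the assembly of mm10): Fbn1, Mfap2, Fbln1, Fbln2, Fbln5 and Emilin1, in 9 windows, of which the 250 bases before the start site were read. Windows lying in an exon of GENCODE vM21 by more than 30 bases, among them those of Fbn1, Fbln2 and Emilin1, are not printed. Shown are Mfap2, which was lower in both Asxl1-/- libraries, and Fbln1 and Fbln5, which differed most between the Asxl1-/- libraries. Each is given 5′ to 3′ on the gene's strand, at chr4:141010174-141010423 (plus), chr15:85205699-85205948 (plus) and chr12:101819120-101819369 (minus). Capitals mark matches on either strand to any of 5 motifs. These were the TATA box (TATAAA) and the GC box (GGGCGG), the CCAAT box of that spelling, the AP-1 motif (TGANTCA) and the TEAD motif (GGAATG).
Mfap2: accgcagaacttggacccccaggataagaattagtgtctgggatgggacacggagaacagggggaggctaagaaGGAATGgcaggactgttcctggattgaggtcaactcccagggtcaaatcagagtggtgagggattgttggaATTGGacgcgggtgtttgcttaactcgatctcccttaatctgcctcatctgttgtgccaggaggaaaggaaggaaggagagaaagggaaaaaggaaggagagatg
Fbln1: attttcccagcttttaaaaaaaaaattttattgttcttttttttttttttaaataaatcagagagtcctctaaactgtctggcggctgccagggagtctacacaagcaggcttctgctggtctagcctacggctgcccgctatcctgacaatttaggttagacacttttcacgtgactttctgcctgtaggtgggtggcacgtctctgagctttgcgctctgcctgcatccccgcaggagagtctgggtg
Fbln5: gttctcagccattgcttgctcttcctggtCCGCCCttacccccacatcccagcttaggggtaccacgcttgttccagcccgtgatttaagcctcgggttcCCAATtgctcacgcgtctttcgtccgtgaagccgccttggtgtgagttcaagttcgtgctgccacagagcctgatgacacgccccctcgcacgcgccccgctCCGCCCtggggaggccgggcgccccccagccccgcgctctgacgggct
The printed Mfap2 window holds a CCAAT box and a TEAD match, the printed Fbln5 window a CCAAT box and 2 GC boxes, and the printed Fbln1 window none of the 5 motifs. Each of these genes has another window that is not printed. That of Mfap2 holds 2 GC boxes, that of Fbln1 a GC box 11 bases before its start, and that of Fbln5 none of the motifs. No printed match overlaps another. Among 32851 such windows of all genes, 33.8% hold the CCAAT box, 32.7% the GC box, 12.6% the TEAD motif, 12.4% the TATA box and 6.75% the AP-1 motif, and a match describes letters only. The share of CpG dinucleotides, as observed over expected from base composition, was 0.35 for Mfap2, 0.52 for Fbln1 and 0.824 for Fbln5 in the printed windows. In their other windows it was 0.651, 0.575 and 0.395, against a median of 0.374 over all windows. Over the 9 windows it ran from 0.181 (Emilin1) to 0.824.

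A list of 47 other genes of elastic fibre assembly was set beside these 10. All 47 had a row, 40 were tested, and 0 passed the adjusted limma threshold in either direction (0.0261% of all genes tested did), with 5 at an unadjusted p under 0.05 (7.91% of all genes tested). Of the 40, 13 were higher in both Asxl1-/- libraries than in either WT library, against 15.6% of all genes tested, and 5 were lower in both, against 25.2%. The median log2 fold change was 0.18, against -0.07 over all genes tested. Among the 40, Mfap3l and Itgb8 pass the level filter through their Asxl1-/- values alone and Mmp9 through its WT values alone. The list was drawn up with earlier results of these data known.

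The crosslinking enzymes had 3 of 5 genes higher in both Asxl1-/- libraries (15.6% of all genes tested) and 1 lower in both (25.2%). Loxl1, a lysyl oxidase that acts on elastin, stood at 83.4 and 91.0 FPKM in Asxl1-/- libraries and at 19.0 and 35.9 FPKM in WT libraries (log2 fold change 1.70, standard error 0.37, limma adjusted p = 0.503). Loxl2, an oxidase of basement membrane collagen, stood at 144.5 and 80.6 FPKM in Asxl1-/- and at 14.2 and 54.5 FPKM in WT. Among the relatives of the fibulins, Efemp1 stood at 322 and 364 FPKM in Asxl1-/- and at 138 and 2.47 FPKM in WT. Its log2 fold change of 3.97 (standard error 1.77, limma adjusted p = 0.632) was 6.63 without WT replicate 1 and 1.31 without WT replicate 2. Fbln7 was carried by a single library, at 40.9 and 0.148 FPKM in Asxl1-/- and at 1.40 and 0.816 FPKM in WT.

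Of the 4 genes of the latent TGF-beta binding protein family, 0 were higher in both Asxl1-/- libraries (15.6% of all genes tested) and 1 was lower in both, near the 25.2% of all genes tested. That gene, Ltbp4, which also takes part in elastic fibre assembly with Fbln5, stood at 0.730 and 1.63 FPKM in Asxl1-/- and at 13.6 and 3.46 FPKM in WT (log2 fold change -1.92, standard error 0.66, limma adjusted p = 0.605; -1.06 without WT replicate 1). Ltbp3 stood at 61.8 and 58.1 FPKM in Asxl1-/- and at 96.9 and 59.9 FPKM in WT. Of the 9 microfibril-associated and ADAMTS-like genes tested, 3 were higher in both Asxl1-/- libraries (15.6% of all genes tested) and 2 lower in both, near the 25.2% of all genes tested. Adamtsl4, which binds fibrillin microfibrils, stood at 7.68 and 9.63 FPKM in Asxl1-/- and at 14.1 and 34.6 FPKM in WT, and Adamtsl5 at 9.16 and 18.8 FPKM in Asxl1-/- and at 1.48 and 6.86 FPKM in WT. Mfap1a and Mfap1b are near-identical copies, and their values are uncertain.

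Integrins bind fibrillin and fibulins at the cell surface. Of the 7 tested, 4 were higher in both Asxl1-/- libraries (15.6% of all genes tested) and 0 lower in both (25.2%). Among the 4 is Itgb8, which passes the level filter through its Asxl1-/- values alone. Itgb5 stood at 124 and 243 FPKM in Asxl1-/- and at 59.1 and 112 FPKM in WT (log2 fold change 1.08, standard error 0.49, limma adjusted p = 0.632; 0.60 without Asxl1-/- replicate 2 and 0.62 without WT replicate 1), and Itgb3 at 5.26 and 3.09 FPKM in Asxl1-/- and at 1.30 and 2.67 FPKM in WT. Of the 7 elastases and processing enzymes tested, 1 was higher in both Asxl1-/- libraries and 1 lower in both, against 15.6% and 25.2% of all genes tested. The gene lower in both was the gelatinase Mmp9, which passes the level filter through its WT values alone. Mmp9 stood at 0.0498 and 0.0805 FPKM in Asxl1-/- and at 3.72 and 0.990 FPKM in WT. The convertase Furin, which cleaves profibrillin, stood at 18.5 and 22.4 FPKM in Asxl1-/- and at 16.1 and 17.7 FPKM in WT. Among the elastin receptor complex and chaperones, 1 of 4 was higher in both (15.6% of all genes tested) and 0 lower in both (25.2%). The sialidase Neu1 stood at 6.43 and 7.63 FPKM in Asxl1-/- and at 5.18 and 4.64 FPKM in WT, and the collagen and elastin chaperone Fkbp10 at 95 and 107 FPKM in Asxl1-/- and at 91.8 and 138 FPKM in WT. Emilin2, the 1 gene of the emilins and multimerins tested, overlapped, at 19.4 and 21.9 FPKM in Asxl1-/- and at 32.4 and 13.2 FPKM in WT.

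In the authors' deposited table Loxl1, Efemp1 and Fbln7 are marked significantly higher in Asxl1-/- and Ltbp4 significantly lower, with q between 0.00836 and 0.0479. These 4 are the marked genes among the 40 of the list that it tested, the same 40 as in limma. Of all 12881 genes it tested, 0.939% are marked. Fbln7, as given above, was carried by a single library.

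**Figure D5:**
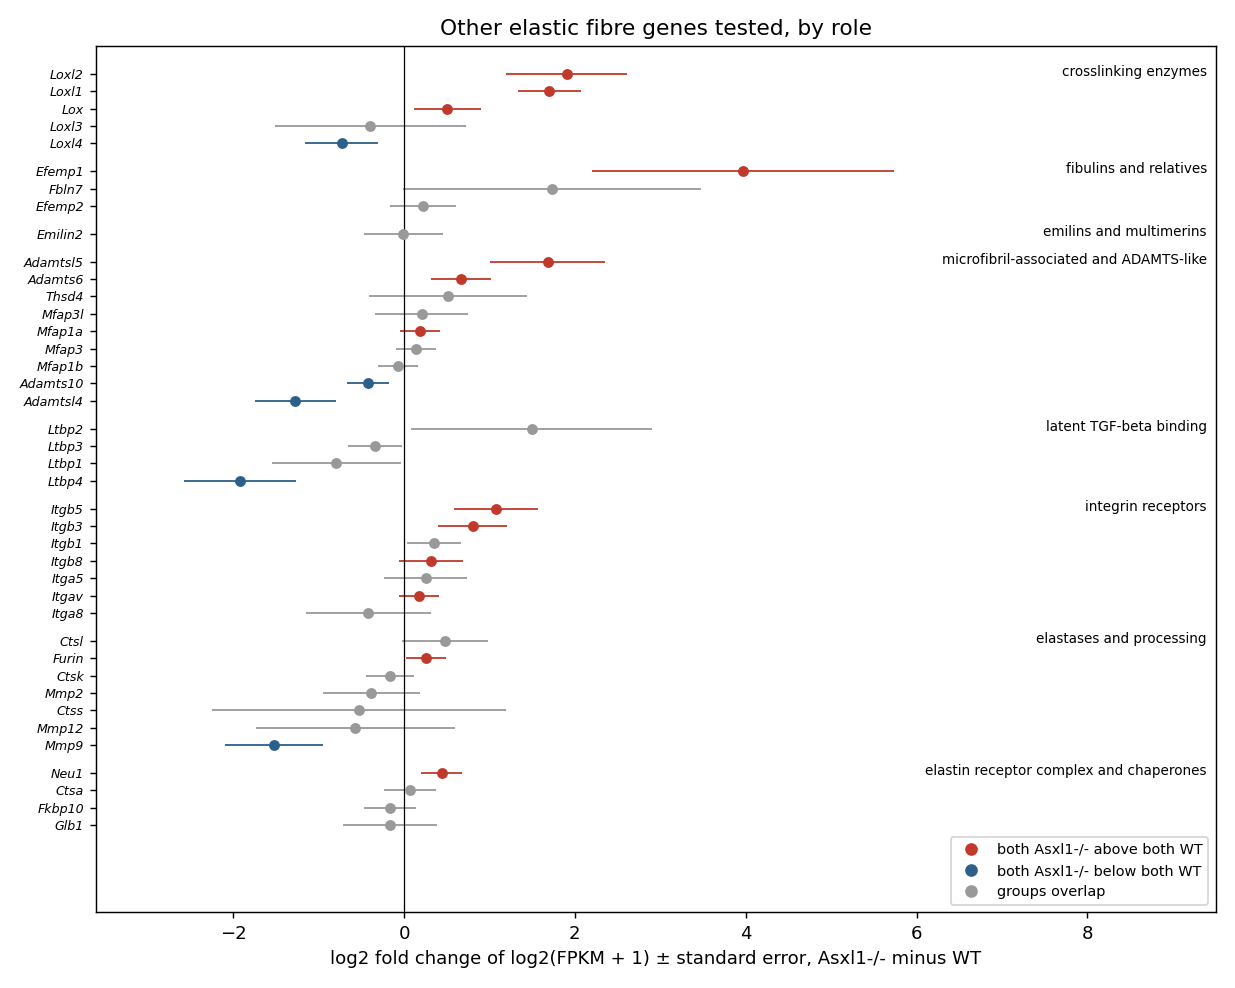
Log2 fold changes of log2(FPKM + 1) with bars of 1 standard error, Asxl1-/- minus WT, of the 40 other elastic fibre genes tested, grouped by role. Colour shows whether the Asxl1-/- libraries were both above the WT libraries (13 genes), both below (5) or overlapped them (22).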

How the data were processed

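RNA of 2 Asxl1-/- and 2 WT MSPC cultures was sequenced. Per the submitters' processing notes, alignment to mm10 used TopHat2 (2.0.3), and Cufflinks (2.2.1) and Cuffdiff followed; neither annotation nor strandedness is given in the sources used here. The deposited FPKM table gives 1 value per gene and library. The authors' deposited Cuffdiff table gives group FPKM, log2 fold changes, p-values and q-values. A deposited log table was not used, and 4 per-sample columns of the FPKM and log tables that match no sample were not used. Groups follow the genotype label; replicate numbers follow accession order and pair no samples.

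File starts had 1 added. Rows averaging 1 FPKM or more entered limma 3.58.1 in R 4.3.3 (trended eBayes) as log2(FPKM + 1), two-sided, with Benjamini-Hochberg adjustment at 0.05; fold changes on this scale understate low genes. The script was tested on simulated data with a replicate spread set smaller than the observed one. That checks the code and not how the test performs at the real spread. Python 3.11.15 made tables and figures. All 10 members are named; from the list of 47, up to 2 genes per role with the smallest p are named, and others where a limit, a count or the fibulin plot concerns them (Mfap1a, Mfap1b, Mfap3l, Itgb8, Efemp2), chosen after their values were seen. Alternatives were pseudocounts of 0.1 and 0.5, other filters and scalings, removal of chromosome medians, other eBayes options and leaving out each library. Members and lists were chosen with earlier results of these data known.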

Additional observations from a re-analysis of the deposited data

How the results depend on the processing

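Of 14 alternatives, those that kept all 4 libraries called 0 of the members tested at the adjusted limma threshold. The lowest adjusted limma p was 0.345 (Fbn2, eBayes without trend). In these alternatives 3 to 5 members had an unadjusted limma p under 0.05. Among all genes, 653 of 8397 did so at a mean of at least 5 FPKM and 1478 of 24487 with no filter. In the others it was 897 to 1021 of 11458 or 11485 genes. Fbn1, Mfap5 and Fbln2 kept positive and Fbn2, Mfap2 and Mfap4 negative fold changes wherever they were tested. Mfap2 and Mfap4 drop out at a mean of at least 5 FPKM. Apart from Mfap4, the groups of these genes do not overlap, so pseudocounts and leaving out 1 library could not turn their sign. Other filters and eBayes options leave the fold changes as they were. For those genes only other scalings and the removal of chromosome medians could have turned the sign. The log2 fold change of Emilin1 turned to 0.063 after median ratio scaling and to 0.051 with chromosome medians removed, and ran from -0.073 to 0.018 with 1 library left out. Leaving out 1 library also turned Fbln1 (-3.07 to 1.05) and Fbln5 (-1.73 to 1.79). After median ratio scaling, which moves the median of all genes from -0.07 to 0.01, 6 members did not overlap, 4 higher and 2 lower, where 20.1% of all genes tested were higher and 20.8% lower. Of all genes, 3 were called with limma, 68 with no filter (5 higher, 63 lower), 0 without genes under 300 bp (918 at an unadjusted p under 0.05), and 1 to 8 with 1 library left out, which also has fewer samples. For the others the cause was not tested. No paired analysis was possible because the labels give the groups no shared replicate numbers. With 2 libraries per group and no read counts, differences as wide as those within Fbln1 or Fbln5 could not be told from replicate spread.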
